A study of Arabidopsis thaliana with 18 samples.

Results

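Arabidopsis plants that overexpress RTL2 in an otherwise wild-type background were compared with the wild type to ask which genes and gene families kept their messenger RNA level while RTL2 was high. The comparison takes 6 of the 18 libraries of the series, chosen by their titles, with 3 libraries titled 35S-RTL2 and 3 titled Col-0, and it uses the raw read count of every row of their tables. Col-0 is the Columbia laboratory accession and serves as the wild type. In 35S-RTL2 the RTL2 coding gene is driven by the 35S promoter of a plant virus, which is active in most plant tissues, and the labels name no other change to these plants. How many transformed lines the 3 libraries cover, and whether replicates came from separate plants or cultures, is not given in the sources used here. The p-values therefore take in only the variation among these libraries, part or all of which may be technical. All plants were grown in vitro at 22 °C in days of 18 h light and nights of 6 h, and total RNA of seedlings was taken 11 days after germination. For a second background, the 3 libraries of dcl234, a mutant of DCL2, DCL3 and DCL4, were set against the 3 libraries of dcl234 carrying 35S-RTL2, and those 6 libraries are not among the 6 above. The other 6 libraries entered the same model, and their QQS levels are given below. Of these, 3 are of rtl2-1, a mutant of RTL2 that was also compared with Col-0. Another 2 are of 35S-RTL1-Myc, in which the 35S promoter drives RTL1 with a Myc tag in Col-0. The last 1 is of dcl234 with a truncated DCL1 behind the same promoter. Having no replicate, it adds nothing to the shared estimate of spread.

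RNase III enzymes cut double-stranded RNA. In plants the Dicer-like members of the family make small RNAs: DCL1 releases microRNAs from folded precursors, whereas DCL2, DCL3 and DCL4 make the small interfering RNAs of virus defence, DNA methylation and trans-acting silencing. The RNase III-like (RTL) proteins are smaller relatives. RTL2 is known for a cut in the 3′ external spacer of the ribosomal RNA precursor, and it can also cut other double-stranded RNA before a Dicer reaches it. Genes of small RNA pathways, their targets, loci kept silent by DNA methylation and genes of ribosome production are therefore described first.

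The 6 libraries held 20775728 to 28414982 counts each over 31362 rows. A row is 1 gene or, in 1897 cases, several overlapping genes counted together, which are named here with a slash; a value of such a row cannot be given to a single gene. Levels are CPM, counts relative to the library size after scaling by the TMM factors, and values are given in the order of replicates 1, 2 and 3. The 35S-RTL2 libraries were not alike. Across genes, log2 levels of 35S-RTL2 replicate 3 correlated with the 3 Col-0 libraries at r = 0.991 to 0.993. With the other 35S-RTL2 libraries that library correlated at 0.984 and 0.985, although its RTL2 level was as high as theirs. Replicates 1 and 2 of 35S-RTL2 correlated with each other at 0.9888. With Col-0, replicate 1 correlated at 0.9795 to 0.9864 and replicate 2 at 0.9845 to 0.9886. Values without 35S-RTL2 replicate 3 are given for the called rows and for some lists, and not for other single genes. Bulk RNA does not tell fewer cells of a type from less RNA per cell.

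The tissue markers went partly against the label of seedlings. Of 8 root genes, EXPA7 of root hairs had at most 1 count in any of the 6 libraries, MYB36 of the endodermis at most 1, and TIP2;3 at most 6. Others were low but present in every one of these libraries, with COBL9 of root hairs at 0.345 to 1.25 CPM, CASP2 of the endodermis at 0.627 to 1.01 CPM and the row of CASP1 and AT2G36090 at 2.36 to 3.85 CPM. SHR and SCR, which also act in shoots, lay between 27.3 and 40.9 CPM. The floral organ genes were plainly present in both groups, with AP3 at 110.3 to 140.0 CPM, PI at 131 to 161 CPM and SEP3 at 176 to 221 CPM. Seed storage genes read alone were at or near 0, with OLEO2 at 0.433 CPM or less. The row that joins OLEO1 with AT4G25150 went the other way, at 17.2 to 24.9 CPM, and cannot be given to a single gene. All 7 floral rows were bounded within 2-fold between the groups, in the sense defined below, with a median log2 change of 0.0085 (-0.03 to 0.07 as each library was left out).

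RTL2 was the row with the smallest p. Its level was 539.5, 618 and 515 CPM in the 35S-RTL2 libraries and 2.93, 2.98 and 2.89 CPM in Col-0. The 3 transgenic libraries lay far above the 3 wild-type ones, with no overlap. The log2 change was 7.57 (SE 0.17; 95% interval 7.21 to 7.93; adjusted p = 8.93e-12, by the quasi-likelihood F test of edgeR, with Benjamini-Hochberg adjustment over 21343 rows, as for every adjusted p here). The counts cannot separate the transgene's transcript from that of the plant's own gene.

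At an adjusted p under 0.05, 2 of the 21343 rows tested were called, 0.00937% of them, with 1 higher (0.00469%) and 1 lower (0.00469%). The other called row was QQS, a short gene found in Arabidopsis that is known for lowering starch content and for a level that follows DNA methylation in its upstream region. QQS stood at 1.73, 1.64 and 1.26 CPM under RTL2 overexpression against 9.62, 12.2 and 10.3 CPM in Col-0. The groups did not overlap, and every transgenic library was below every wild-type one by a wide gap. QQS fell by 2.79 on the log2 scale (SE 0.28; 95% interval -3.40 to -2.19; adjusted p = 0.00101). Both rows were called whichever of the 6 libraries was left out. Without 35S-RTL2 replicate 3 the log2 change was -2.67 for QQS (adjusted p = 0.0185) and 7.62 for RTL2. The deposited tables carry a number whose meaning is not given; within number 2 (1 library against 2) and within number 3 (1 against 1), the QQS difference in log2(CPM + 0.5) was -2.57 and -2.57 and that of RTL2 7.24 and 7.47. Number 1 held 35S-RTL2 replicate 1 and no Col-0 library. Low QQS was not particular to the overexpressor. In rtl2-1, a mutant of RTL2 compared with the same Col-0 libraries and with 26 rows called (0.122%), QQS had 2.32, 3.51 and 1.96 CPM and fell by 2.05 on the log2 scale (adjusted p = 0.0047, edgeR). It was at 0.724 and 1.23 CPM in the 2 libraries of 35S-RTL1-Myc, at 3.39, 4.18 and 6.05 CPM in dcl234 and at 1.39 CPM in the single library of dcl234 with truncated DCL1. Every library of every other group thus lay below the lowest Col-0 library. The plot of RTL2 and QQS levels shows the libraries one by one.

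**Figure D1:**
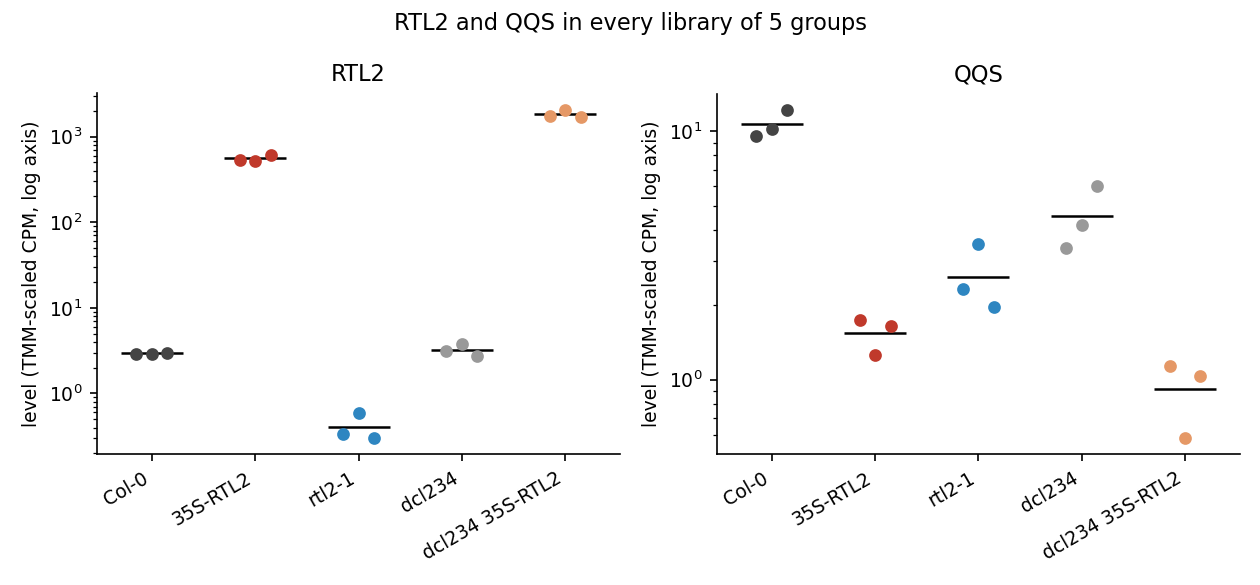
Level of RTL2 (left) and QQS (right) in the libraries of Col-0, 35S-RTL2, rtl2-1, dcl234 and dcl234 35S-RTL2, as TMM-scaled CPM on a log axis, with 1 point per library and a bar at the group mean. In the wild-type background RTL2 lies at 515 to 618 CPM with the construct and at 2.89 to 2.98 CPM without it, and QQS at 1.26 to 1.73 CPM with it and 9.62 to 12.2 CPM without it.

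The 5 rows next in order of p did not pass edgeR's test, while DESeq2 called AT5G35935, OFP12 and AT4G04223 among them. AT5G35935, a pseudogene, had 7.89, 7.54 and 6.67 CPM with the construct and 3.51, 4.63 and 2.72 CPM in Col-0, a log2 difference of 1.02 (95% interval 0.69 to 1.34; adjusted p = 0.0619), with all 3 transgenic libraries above. It passed edgeR's test with Col-0 replicate 2 left out (adjusted p = 0.00614) and with no filter on low counts (adjusted p = 0.0423). OFP12, which encodes an ovate family protein, had 7.07, 8.47 and 7.52 CPM against 4.1, 4.71 and 5.22 CPM, a log2 difference of 0.72 (adjusted p = 0.71). The non-coding RNA AT4G04223 had 0.722, 1.07 and 0.65 CPM against 2.05, 2.07 and 2.2 CPM, a log2 difference of -1.35. AIG1, a gene known for its induction by a bacterial effector, and the gene AT3G33528 both had at most 1.13 CPM in any of the 6 libraries, with log2 differences of -2.09 and -2.30. In each of these 5 rows the groups did not overlap, a pattern found in 1069 rows for higher values (5.01% of the rows tested) and in 1208 rows for lower values (5.66%).

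A p that misses the threshold does not show that a gene stayed the same, so the 95% interval of each log2 change was used to bound it. A row counts as bounded within 2-fold where its whole interval lies between -1 and 1 on the log2 scale, and within 1.5-fold where no end of it is farther than 0.585 from 0. By this measure 17392 of 21343 rows (81.5%) were bounded within 2-fold and 13586 (63.7%) within 1.5-fold. The median log2 change over all rows was -0.0022, and the quartiles were -0.11 and 0.13. For the median row the interval allowed a change of at most 1.36-fold. Of the remaining rows, 3686 had an interval that reached past 2-fold on at least one side, 257 had no interval because a group of the model held 0 counts, and 8 had an interval wholly beyond 2-fold. Those 8 were RTL2, QQS, AIG1, AT3G33528, XTH17, AT1G67105, AT1G67626 and AT4G21870, and edgeR called RTL2 and QQS among them; DESeq2 called AT1G67105 as well. At an unadjusted p under 0.05 there were 956 rows, 4.48% of those tested.

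No row was switched fully on or off. Among all 31362 rows, 5774 had 0 counts in all 6 libraries. With a minimum of 10 counts in every library of a group, 19263 rows were detected in Col-0 and 19364 in 35S-RTL2, of which 19056 were detected in both. The number of rows at 0 in every library of one group and at 10 or more counts in every library of the other was 0 in either direction.

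**Figure D2:**
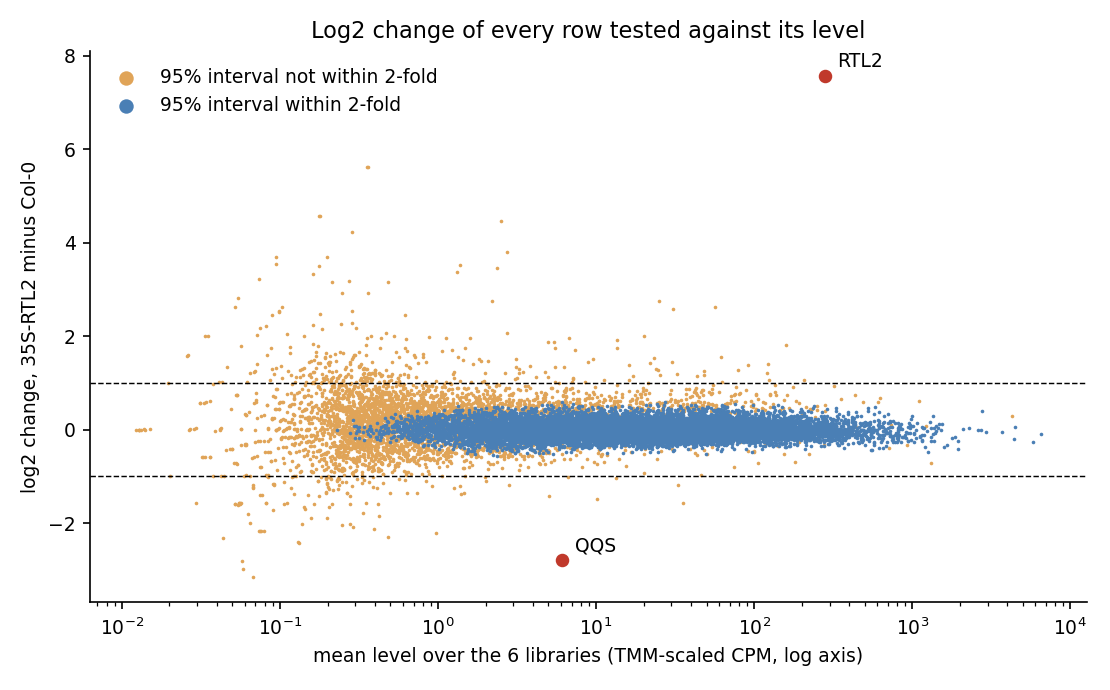
Log2 change (35S-RTL2 minus Col-0) of every row tested against its mean level over the 6 libraries (TMM-scaled CPM, log axis), with dashed lines at a 2-fold change. Blue rows (17392) have a 95% interval within 2-fold, orange rows do not, and the 2 called rows, RTL2 and QQS, are in red.

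The share of bounded rows was smallest at low levels. Below 1 CPM, 356 of 2833 rows (12.6%) were bounded within 2-fold, and the median row allowed a 2.89-fold change. Between 1 and 10 CPM the share was 80.2% of 5351 rows, and between 10 and 100 CPM it was 96.9% of 10967 rows. The 2137 rows between 100 and 1000 CPM reached 97.0%, with 84.6% bounded within 1.5-fold. For the 55 rows of 1000 CPM or more the shares were 92.7% and 67.3%, so the most abundant transcripts were not the most tightly bounded. Replicates also spread more with the construct: the median SD of log2(CPM + 0.5) was 0.152 in 35S-RTL2 and 0.104 in Col-0.

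**Figure D3:**
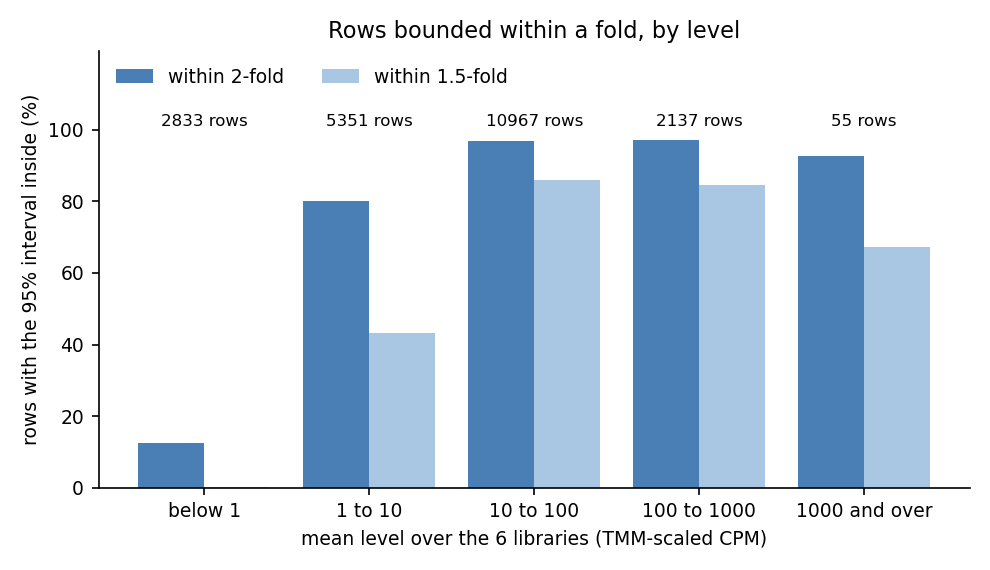
Share of rows whose 95% interval lies within 2-fold or within 1.5-fold, by mean level over the 6 libraries in CPM. The 2-fold share is 12.6% below 1 CPM, 80.2% at 1 to 10 CPM, 96.9% at 10 to 100 CPM, 97.0% at 100 to 1000 CPM and 92.7% above.

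Genes were then read by function, in 37 lists of 479 genes, of which 455 were tested in 453 rows. The called members were again RTL2 and QQS alone. Of the 453 rows, 358 (79.0%) were bounded within 2-fold, against 81.5% of all rows. The lists were not matched to all rows by level, on which that share depended. Between 10 and 100 CPM, 96.9% of all rows were bounded. At a median of 43.55 CPM, 68.2% of the clock rows were bounded. At a median of 42.9 CPM, all rows of microRNA maturation and siRNA amplification were. In 21 larger families taken from RefSeq symbols and product names, 0 of 1653 rows were called and 1339 (81.0%) were bounded within 2-fold. An unadjusted p under 0.05 was found in 37 of the 453 list rows (8.17%, against 4.48% of all rows), RTL2 and QQS among them. In the families it was found in 74 rows (4.48%), and DESeq2 called 0. By family that share ran from 0 of 15 rows for tubulins to 5 of 28 (17.9%) for xyloglucan endotransglucosylases. Outside the lists that hold RTL2 and QQS, edgeR and DESeq2 called 0 rows of any of the 37 lists.

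Among the enzymes of the RNase III class, the rows of the 4 Dicers were closely bounded. DCL1 shares its row with the microRNA gene MIR838 inside it and with PPa1, and that row was at 144, 146 and 146 CPM with the construct and 147, 155 and 150.0 CPM in Col-0, a log2 difference of -0.05 (95% interval -0.20 to 0.10). The row of DCL2, with AT3G03305, had 67.2, 65.3 and 60.7 CPM against 76.4, 69.4 and 63.9 CPM, with overlapping groups. DCL3, with AT3G43930, had 19.6, 17.6 and 18.8 CPM against 21.7, 20.1 and 19.1 CPM, and DCL4 had 38, 33.6 and 27.2 CPM against 35.4, 33 and 27.1 CPM. All 4 Dicer rows were bounded within 1.5-fold. RTL3, an RTL protein with several RNase III domains, had 1.35, 2.07 and 2.32 CPM against 2.3, 2.26 and 2.72 CPM, a log2 difference of -0.33 (95% interval -0.78 to 0.11), and was bounded within 2-fold. RTL1, which is hardly transcribed in the wild type, had at most 0.565 CPM in any of the 6 libraries, and its interval of -1.91 to 1.48 bounds little. DRB2, a double-stranded RNA binding protein, was at 56.9, 57.5 and 55.5 CPM against 55.9, 54.6 and 52 CPM. In the whole list of 12 rows, 10 were bounded within 2-fold, and the others were RTL2 itself and RTL1.

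Argonautes bind small RNAs and carry out silencing. AGO1, the main microRNA effector, stood at 354, 331 and 298 CPM against 351, 314 and 300.4 CPM, with overlapping groups and a 95% interval of -0.19 to 0.24 on the log2 scale. AGO2, which acts in virus defence, was at 33.1, 29.7 and 26.1 CPM against 27.3, 26.6 and 25.8 CPM and AGO6, which acts in DNA methylation, at 4.09, 3.57 and 4.1 CPM against 4.05, 3.84 and 3.45 CPM. Of 9 argonaute rows 8 were bounded within 2-fold. AGO3 was the exception, at 3.9, 2.64 and 1.18 CPM against 2.17, 1.66 and 0.69 CPM (interval -0.29 to 1.80), with overlapping groups. The genes that make microRNAs and amplify siRNAs were bounded throughout, with all 20 rows within 1.5-fold and a median log2 change of -0.06 (-0.10 to -0.03 as each library was left out). The row of AT3G46960 and AT3G46950 had the farthest estimate, a log2 difference of -0.23 (95% interval -0.39 to -0.06). XRN2, a nuclear exoribonuclease, had 68.5, 69.5 and 70.5 CPM against 79.3, 76.8 and 77.2 CPM; its groups did not overlap, and its log2 difference was -0.16 (95% interval -0.29 to -0.03; adjusted p = 0.899). RDR2, an RNA-dependent RNA polymerase, was at 9.76, 9.43 and 9.96 CPM against 11.9, 10.7 and 9.83 CPM.

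In RNA-directed DNA methylation, 17 of 18 rows were bounded within 2-fold. The exception was CHR42, a putative chromatin remodeler, at 3.32, 3.29 and 4.19 CPM against 6.52, 5.12 and 5.35 CPM. Its transgenic libraries were all below the wild-type ones, and its log2 difference was -0.65 (95% interval -1.15 to -0.16; adjusted p = 0.899). SUVH2 and SUVH9, which recruit RNA polymerase V to methylated DNA, had 12.1, 12.7 and 12.2 CPM against 11.6, 12.3 and 11.8 CPM and 28.9, 31.8 and 32.1 CPM against 31.3, 28.8 and 30.6 CPM, and both were bounded within 1.5-fold. For maintenance and removal of DNA methylation, all 16 rows were bounded within 2-fold and 12 within 1.5-fold. MET1, the maintenance methyltransferase, was at 53.5, 45.8 and 64.1 CPM against 72, 61.3 and 64.8 CPM, a log2 difference of -0.28. Its replicates 1 and 2 were below every Col-0 library and replicate 3 lay within them. The histone deacetylase HDA6 was at 35.8, 38.1 and 36.6 CPM against 31.6, 33.3 and 35.5 CPM. Loci that DNA methylation silences gave no such bound, since 0 of 4 rows lay within 2-fold. QQS was called, and FWA, a homeobox gene mostly silent outside the seed, was at 1.92, 1.32 and 0.853 CPM against 1.63, 1.05 and 0.863 CPM with an interval of -1.12 to 1.52.

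Trans-acting siRNAs are cut from TAS transcripts after a microRNA has cut them. TAS1C, in a row with AT2G39670, was at 59.9, 58.7 and 80.2 CPM against 79.8, 68.2 and 79.3 CPM. TAS2 was at 12.3, 16.8 and 16.7 CPM against 16.8, 17.9 and 17.8 CPM, where the highest transgenic value lay just below the lowest of Col-0, a log2 difference of -0.20 (95% interval -0.55 to 0.16; adjusted p = 0.904). TAS3 was at 7.99, 11.4 and 11.9 CPM against 10.2, 11.6 and 12.1 CPM, with overlapping groups. Of 7 TAS rows 5 were bounded within 2-fold, with a median log2 change of -0.19. That median was -0.01 with 35S-RTL2 replicate 1 left out and -0.35 with replicate 3 left out, and leaving out Col-0 replicate 2 or 3 gave -0.09 or -0.13. Their targets were bounded in 18 of 19 rows. ARF3 and ARF4, auxin response factors cut by TAS3 siRNAs, had 43.4, 35.8 and 45.4 CPM against 50.5, 42.1 and 46.2 CPM and 50.5, 46.5 and 51.2 CPM against 48.3, 45.1 and 43.3 CPM.

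Targets of conserved microRNAs were read family by family. The 5 HD-ZIP III genes, the leaf polarity factors cut by miR165 and miR166, were all bounded within 1.5-fold. Among them PHB was at 66.4, 62.5 and 65.7 CPM against 70.3, 62.6 and 63.3 CPM and PHV at 102, 96 and 86.9 CPM against 91.8, 84.5 and 90.1 CPM. All 5 auxin response factors cut by miR160 and miR167 were bounded within 1.5-fold as well, with ARF8 at 199.8, 201 and 191 CPM against 206, 196 and 193 CPM and an interval of -0.17 to 0.15. The miR156 targets, SPL factors that time the juvenile to adult change, were bounded within 2-fold in 9 of 10 rows. SPL10 was at 81.2, 77.3 and 71.7 CPM against 75.1, 71.2 and 73.9 CPM. SPL2 was not bounded, with 123, 149.5 and 71.4 CPM against 84.1, 80.2 and 81.4 CPM: replicates 1 and 2 were above every Col-0 library and replicate 3 was below them. Bounds within 2-fold held for all 5 TCP genes of miR319, all 7 GRF genes of miR396, all 7 NF-YA rows of miR169 and all 4 auxin receptor rows of miR393, where TIR1 had 95.9, 81.4 and 94.2 CPM against 100.5, 90.9 and 94.8 CPM. For the AP2-like genes of miR172 the count was 5 of 6; AP2 was at 79.9, 81.4 and 62 CPM against 56.3, 59.2 and 61.7 CPM, with all transgenic libraries above and an interval of 0.03 to 0.63. Of the 10 targets of miR164, miR171, miR159 and miR824, 8 were bounded, and CUC1 and CUC2, the organ boundary genes, were not. CUC1 was at 1.59, 1.47 and 1.67 CPM against 0.836, 0.867 and 1.68 CPM and CUC2 at 1.2, 1.57 and 1.38 CPM against 1.55, 1.05 and 0.517 CPM, with overlapping groups in both. The targets that answer to copper and nutrient supply were bounded in 11 of 12 rows, and of these the superoxide dismutase gene CSD2 was at 313, 337 and 387 CPM against 351, 373 and 298 CPM. LAC2, a laccase, was the exception at 14, 15.5 and 5.57 CPM against 5.89, 9.34 and 6.56 CPM.

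Ribosomal RNA is made and trimmed in the nucleolus. Of 17 rows for nucleolar and rRNA processing factors, 16 were bounded within 2-fold and 15 within 1.5-fold. PES, the pescadillo ribosome assembly factor, was at 88.8, 91.2 and 91.9 CPM against 92.2, 85.3 and 95.5 CPM and APUM23, a nucleolar RNA-binding protein, at 46.5, 47.3 and 47.4 CPM against 50.3, 47.5 and 47.4 CPM. In both the groups overlapped, with intervals of -0.15 to 0.13 and -0.18 to 0.10. RRP44A, a nuclease of the exosome counted with AT2G17500, was at 130.4, 141 and 103 CPM against 109, 109 and 115 CPM. The ribosomal proteins formed the largest family, with 323 rows: 313 (96.9%) were bounded within 2-fold and 305 within 1.5-fold, and their median log2 change was -0.06. It was 0.0023 without 35S-RTL2 replicate 1 and -0.15 without replicate 3. The fibrillarin gene FIB1, counted with the small nucleolar RNA U60.1F, was at 220.5, 263 and 281 CPM against 234, 259.5 and 259.9 CPM. Ribosomal RNA itself was not analysed here.

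Genes used to normalise other RNA measurements were bounded within 2-fold in all 18 cases and within 1.5-fold in 17, with a median log2 change of 0.0091 (-0.03 to 0.04 as each library was left out). PP2AA3, a phosphatase subunit, had the narrowest interval, with 72.6, 69.4 and 73.9 CPM against 71, 73.6 and 73.7 CPM (-0.15 to 0.11). AT2G28390, a SAND family gene, was at 45.7, 42.8 and 46.3 CPM against 42.4, 47.2 and 44.7 CPM (-0.13 to 0.14), and YLS8 at 90.6, 81.9 and 94.5 CPM against 85.3, 93 and 89.8 CPM (-0.16 to 0.14). In these 3 genes the groups overlapped. ACT2, an actin, was wider at 550.1, 659 and 494 CPM against 455, 503 and 566 CPM (-0.11 to 0.44). ROC3, a cyclophilin, was the one not bounded within 1.5-fold, at 622, 731 and 957 CPM against 825, 937 and 1030 CPM (-0.63 to 0.08). UBQ10, a polyubiquitin gene, had 1709, 1480 and 1609 CPM against 1479, 1467 and 1467 CPM. The log2 estimates of the other 12, GAPC1, GAPC2, TUB2, TUB4, UBC9, UBC21 (with AT5G25770), UBQ5, ACT7, ACT8, AT4G26410, AT4G34270 and AT5G60390, ran from -0.12 to 0.17.

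Of the 29 rows for photosystems, antenna and Rubisco, 28 were bounded within 2-fold and 18 within 1.5-fold. EdgeR and DESeq2 called 0 of them, and 3 (10.3%, against 4.48% of all rows) had an unadjusted p under 0.05. In 12 of the 29 (41.4%, against 5.66% of all rows) every transgenic library was below every wild-type one, and the median log2 change was -0.21. It was -0.30 without 35S-RTL2 replicate 3 and -0.14 without replicate 2. LHCB1.1, a light-harvesting antenna protein, had the farthest estimate, at 1018, 812 and 1182 CPM against 2020, 1433 and 1481 CPM (log2 difference -0.71; 95% interval -1.34 to -0.09; adjusted p = 0.899). PSBO1, of the oxygen-evolving complex, was at 1676, 1679 and 1954 CPM against 2074, 1853 and 2015 CPM, with overlapping groups. For chlorophyll synthesis 7 of 9 rows were bounded, the median was -0.35, and 5 rows (55.6%) had all transgenic libraries below. An unadjusted p under 0.05 was found in 4 of the 9 rows (44.4%, against 4.48%). PORA, a protochlorophyllide reductase, was at 13.6, 10.5 and 17.4 CPM against 29.4, 20.3 and 29 CPM and was not bounded (-1.70 to -0.15), while CHLI1, a subunit of magnesium chelatase, was at 241, 256 and 289.9 CPM against 334, 304 and 331 CPM and bounded within 1.5-fold. Because QQS is known for its effect on starch, starch genes were read as well. Their median log2 change was -0.12 (-0.18 to -0.07 as each library was left out). In 5 of the 19 rows (26.3%, against 5.66%) all transgenic libraries were below. An unadjusted p under 0.05 was found in 3 rows (15.8%, against 4.48%). Bounds within 1.5-fold held for 18 of the 19 rows. ADG1, a subunit of ADP-glucose pyrophosphorylase, was at 266, 269.5 and 287 CPM against 311, 306 and 323 CPM (-0.35 to -0.04). GBSS1, the granule-bound starch synthase, was the exception at 78.8, 96.2 and 34.2 CPM against 46.7, 39.5 and 28.8 CPM (-0.28 to 2.01), high in replicates 1 and 2 alone.

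**Figure D4:**
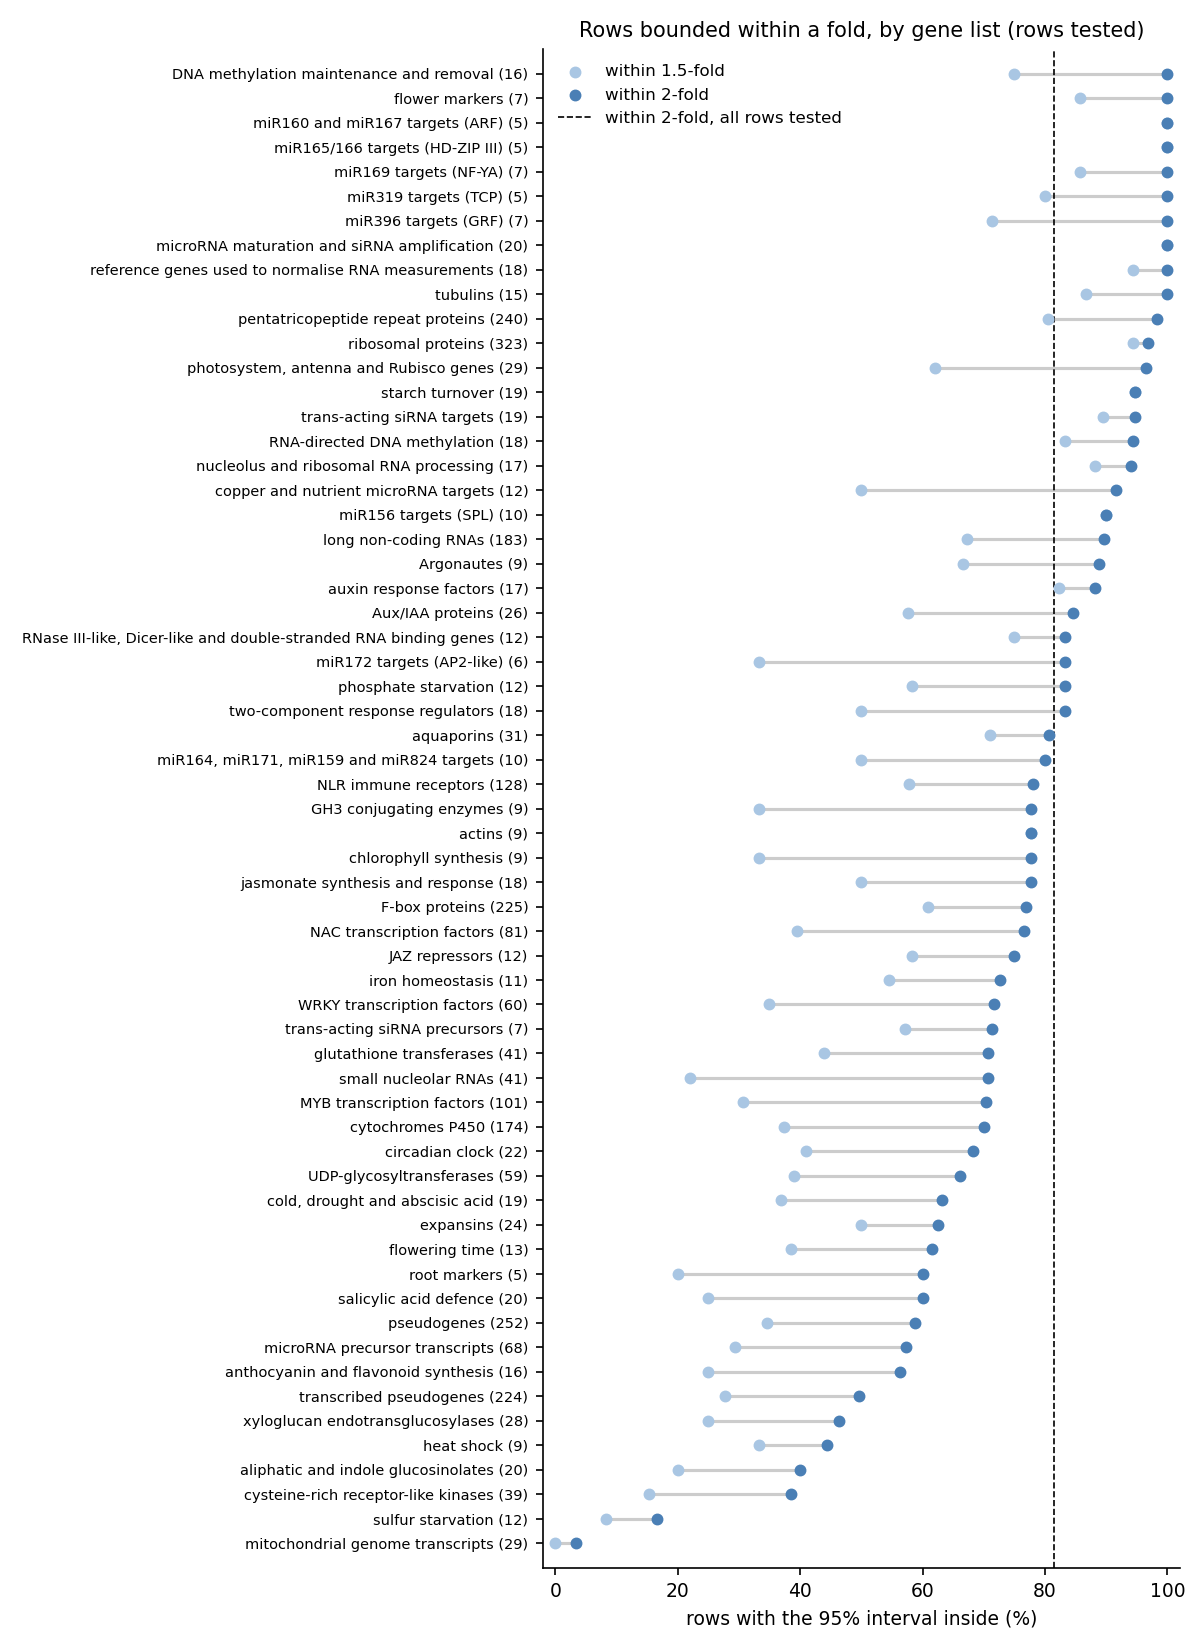
Percent of tested rows whose 95% interval lies within 1.5-fold (light) or 2-fold (dark), for each functional list or family with at least 5 rows tested, with the number of rows in brackets. The dashed line marks the 81.5% of all rows; the lists of microRNA maturation, DNA methylation, ribosome and reference genes lie to its right, and sulfur starvation and the mitochondrial transcripts are at the bottom.

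Of the larger families, the pentatricopeptide repeat proteins, which bind organelle RNA, were bounded in 236 of 240 rows (98.3%), and 20 rows (8.33%, against 5.66%) had all transgenic libraries below. DOT4, a member known from leaf vein patterning, was at 3.7, 4.14 and 4.63 CPM against 5.89, 5.24 and 6.17 CPM (-0.73 to -0.21). All 15 tubulin rows were bounded within 2-fold; TUB3 was at 622, 699.9 and 676 CPM against 635, 625 and 674 CPM. Actins were bounded in 7 of 9 rows, and ACT11 was not, at 143, 185 and 74.6 CPM against 93.2, 107 and 99.6 CPM. The auxin response factors had 15 of 17 rows bounded, the Aux/IAA repressors 22 of 26, the aquaporins 25 of 31 and the two-component response regulators 15 of 18. Shares were lower for NLR immune receptors (100 of 128, 78.1%), F-box proteins (173 of 225, 76.9%), NAC factors (62 of 81, 76.5%), WRKY factors (43 of 60, 71.7%), MYB factors (71 of 101, 70.3%) and cytochromes P450 (122 of 174, 70.1%). They were lowest among protein families for xyloglucan endotransglucosylases (13 of 28, 46.4%) and cysteine-rich receptor-like kinases (15 of 39, 38.5%, and 9 rows without 35S-RTL2 replicate 3). Families also differed in level, on which the bounded share depended. Median levels were 1.62 CPM for these kinases, 3.36 CPM for MYB factors and 115 CPM for ribosomal proteins. They were 7.34 CPM for pentatricopeptide repeat proteins and 22.4 CPM for xyloglucan endotransglucosylases. Family and level were not separated.

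Gene lists for the clock, flowering, stress and nutrient responses were read next. Over all rows tested, 4.48% had an unadjusted p under 0.05. The share was 2 of 13 rows (15.4%) for flowering, 2 of 20 (10%) for defence and 1 of 12 (8.33%) for phosphate. It was 1 of 16 (6.25%) for anthocyanin, 1 of 20 (5%) for glucosinolate and 1 of 22 (4.55%) for clock genes. Jasmonate, iron and cold lists held 0 such rows. Clock genes were bounded within 2-fold in 15 of 22 rows. PRR7, a clock repressor, was at 124, 123 and 116 CPM against 138, 131 and 119 CPM (-0.30 to 0.11), whereas RVE1, a clock output factor, was at 11, 5.25 and 3.82 CPM against 4.81, 5.42 and 3.54 CPM (-0.15 to 1.22). For flowering time the count was 8 of 13. FT, the florigen, was at 67.6, 63.1 and 33 CPM against 42.1, 43.5 and 33.8 CPM (-0.27 to 1.18) and SOC1, a floral integrator, at 54, 54.5 and 50.8 CPM against 53.1, 58.3 and 48.6 CPM (-0.19 to 0.17). Salicylic acid defence genes were bounded in 12 of 20 rows with a median of -0.32, which was -0.20 without Col-0 replicate 3; PR2, a glucanase, was at 2.17, 1.82 and 4.23 CPM against 7.99, 2.11 and 11.9 CPM (-3.45 to 0.62), with Col-0 libraries far apart. Jasmonate genes were bounded in 14 of 18 rows, and VSP1, a vegetative storage protein, was at 3432, 3512 and 5304 CPM against 4099, 5400 and 4574 CPM. Glucosinolate genes were bounded in 8 of 20 rows, iron genes in 8 of 11, phosphate genes in 10 of 12 and cold, drought and abscisic acid genes in 12 of 19. For anthocyanin synthesis 9 of 16 rows were bounded and 3 (18.8%, against 5.01%) had all transgenic libraries above. One of these was AT5MAT, an anthocyanin malonyltransferase, at 3.46, 2.14 and 2.07 CPM against 1.25, 1.58 and 0.949 CPM (0.23 to 1.79).

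Among the functional lists with at least 5 rows, that of sulfur starvation was the least bounded, with 2 of 12 rows within 2-fold and a median level of 29.1 CPM. Their median log2 change was 0.70, ranging from 0.51 to 0.87 as each library was left out. In 5 rows (41.7%, against 5.01%) all transgenic libraries were above. An unadjusted p under 0.05 was found in 3 rows (25%, against 4.48% of all rows), and edgeR and DESeq2 called 0. GGCT2;1, a glutathione-degrading enzyme, was at 39.7, 66.7 and 26.3 CPM against 17, 19.8 and 11.6 CPM, a log2 difference of 1.46 (95% interval 0.40 to 2.51; adjusted p = 0.899). ATSDI1, a sulfur-deficiency gene that represses glucosinolate synthesis, was at 9.19, 11 and 8.01 CPM against 5.52, 4.67 and 3.75 CPM, and BGLU28, a beta-glucosidase, at 12, 44.3 and 6.58 CPM against 7.11, 7.76 and 3.88 CPM. ATSDI1 had no overlap, and in BGLU28 replicate 3 lay among the Col-0 values.

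Several of the widest members shared one layout, in which 35S-RTL2 replicates 1 and 2 were high and replicate 3 was near or below Col-0. TCH4, a touch-induced xyloglucan endotransglucosylase, was at 80.3, 201 and 8.66 CPM against 10.9, 15.4 and 20.9 CPM (log2 difference 2.62; interval 0.45 to 4.80; adjusted p = 0.899). XTH17 was at 7.6, 4.93 and 0.528 CPM against 0.335, 0.527 and 0.302 CPM (1.11 to 5.83) and XTH18 at 13.3, 7.93 and 2.32 CPM against 1.59, 2.79 and 1.98 CPM (0.10 to 3.66). Both encode enzymes that remodel xyloglucan in the cell wall. Over the 28 rows of that family the median log2 change was 0.26. It was 0.46 without 35S-RTL2 replicate 3 and 0.09 without replicate 2. An unadjusted p under 0.05 was found in 5 of these rows (17.9%, against 4.48% of all rows), and edgeR and DESeq2 called 0. WRKY18, a defence regulator, was at 41.4, 47.2 and 13.1 CPM against 11.8, 12.8 and 16.9 CPM. Among heat shock genes, where 4 of 9 rows were bounded, the factor HSFA2 was at 1.59, 4.57 and 0.65 CPM against 0.669, 0.829 and 0.561 CPM, while HSP101 in a row with AT1G74300 was at 22.5, 22.6 and 21.3 CPM against 21.7, 21.4 and 21.4 CPM. An unadjusted p under 0.05 was found in 3 of the 9 heat shock rows (33.3%, against 4.48% of all rows), and edgeR and DESeq2 called 0. The median log2 change of the heat shock list was 0.88. It was 0.47, 0.26 and 0.75 without 35S-RTL2 replicate 1, 2 and 3. RAB18, a dehydrin of the abscisic acid response, was at 30.5, 55.9 and 9.22 CPM against 13.1, 12.7 and 9.75 CPM. With 35S-RTL2 replicate 3 left out, 2745 rows had an unadjusted p under 0.05 in place of 956, the calls were still RTL2 and QQS, and the rows bounded within 2-fold numbered 16378. Without 35S-RTL2 replicate 1 or 2 the rows under 0.05 were 455 and 417, and without Col-0 replicate 1, 2 or 3 they were 540, 744 and 634. Why 35S-RTL2 replicate 3 differed from replicates 1 and 2 was not tested.

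**Figure D5:**
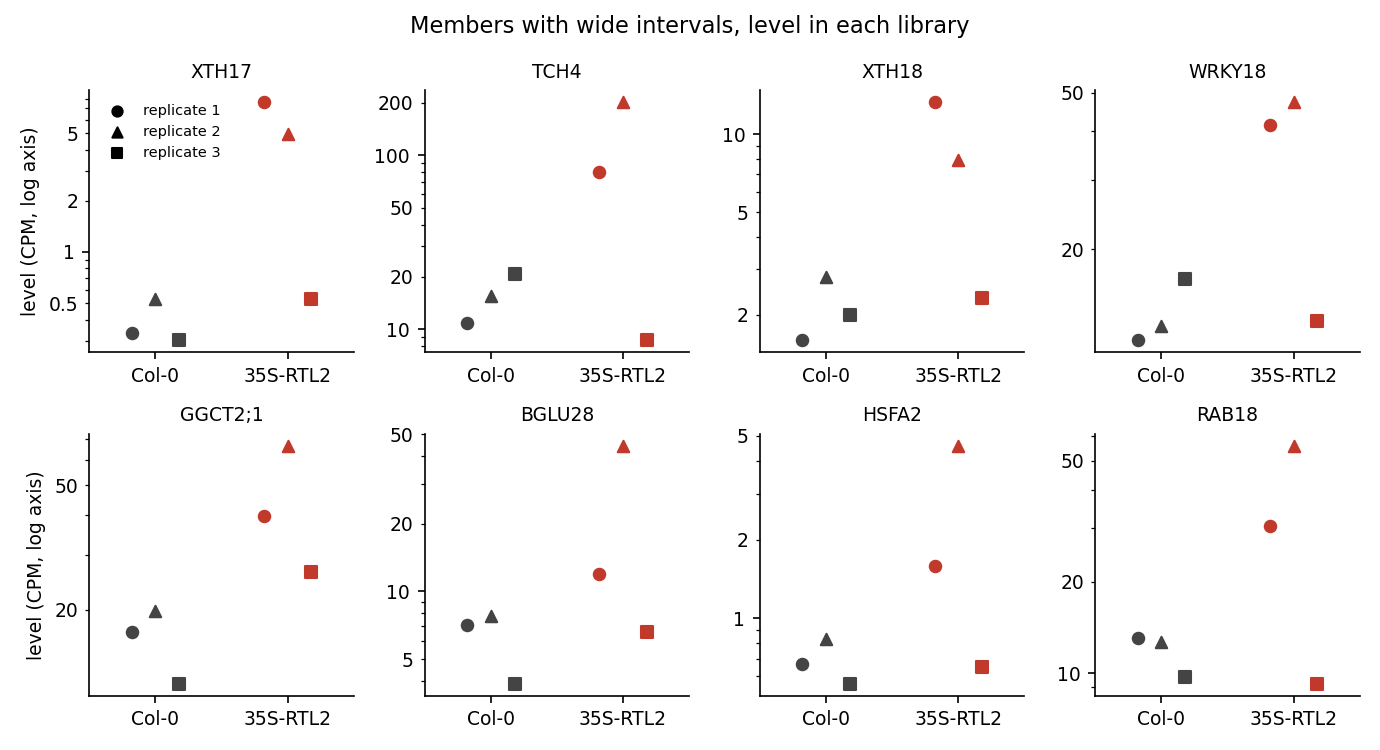
Level in each library (CPM, log axis) of 8 members with wide intervals, picked for this layout after their values were seen. Col-0 is in grey and 35S-RTL2 in red, with a marker shape per replicate number. The main fit did not pair libraries by that number. In 35S-RTL2, replicates 1 and 2 are the 2 highest libraries in each panel, and replicate 3 lies within or next to the Col-0 values, except for GGCT2;1, where it lies clearly above them.

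Non-coding and organelle rows completed the set. Primary microRNA transcripts were bounded in 39 of 68 rows, small nucleolar RNAs in 29 of 41, long non-coding RNAs in 164 of 183, pseudogenes in 148 of 252 and transcribed pseudogenes in 111 of 224. MIR172b, whose microRNA targets the AP2-like genes, was at 1.59, 3.04 and 1.67 CPM against 0.878, 1.28 and 1.77 CPM (-0.01 to 1.40), with overlapping groups. MUG4, a gene derived from a transposase and annotated as a pseudogene, was at 36.5, 38.7 and 35.8 CPM against 36, 34.6 and 34.2 CPM (-0.06 to 0.23). Mitochondrial transcripts, with a median level of 0.425 CPM, were bounded in 1 of 29 rows, with 0 calls by edgeR and by DESeq2. An unadjusted p under 0.05 was found in 6 rows (20.7%, against 4.48% of all rows). The median log2 change was 0.96 (0.63 to 1.28 as each library was left out). The bounded one, ATMG00160, was at 5.53, 3.93 and 5.85 CPM against 3.76, 4.45 and 4.36 CPM.

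The same construct in dcl234 gave 13 called rows (0.0609% of those tested), 4 higher and 9 lower. RTL2 and QQS were again among them: QQS averaged 4.54 CPM in dcl234 and stood at 1.13, 0.584 and 1.04 CPM in dcl234 with 35S-RTL2, a log2 change of -2.31 (adjusted p = 0.0042). The change in QQS did not differ detectably between backgrounds (difference 0.49, SE 0.42, adjusted p = 0.897), and that of RTL2 gave a difference of 1.58 (SE 0.24, adjusted p = 0.0592). None of the other rows was called in the wild-type background. MIR822, a microRNA gene, changed by -2.60 in dcl234 (adjusted p = 0.0042) and stood at 1.59, 3.61 and 4.1 CPM against 2.47, 2.6 and 4.7 CPM in the wild-type background, with overlapping groups. FLC, a repressor of flowering, changed by 1.40 in dcl234 (adjusted p = 0.00291) and stood at 1.25, 0.929 and 0.691 CPM against 1.09, 1.21 and 0.992 CPM in the wild-type background. Over 21343 rows, the difference between backgrounds was called for 2 (0.00937%), AT1G67105 and the row of HDA2, MIR860 and FC1. Bounds within 2-fold held in both backgrounds for 16743 rows, out of 17392 in the wild-type background and 17371 in dcl234.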

How the data were processed

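Messenger RNA libraries of 6 samples in 2 groups were analysed, with the other 12 of the 18 libraries entering the model. The values are raw read counts per row, deposited by the authors, and the submitters' processing notes name the build TAIR9. For the aligner, the counter and the strand setting nothing is given, so antisense partners cannot be told apart. Totals ran from 20775728 to 28414982 counts in the 6 libraries, and counting error is largest for rows under 1 CPM. Symbols came from RefSeq on TAIR10.1, which matched 32701 of 33378 genes. The builds differ by name, so no coordinates are given.

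Rows were filtered with filterByExpr (10019 removed, 21343 tested), scaled by TMM and fitted with edgeR 4.0.16 (glmQLFit, glmQLFTest) in R 4.3.3, with 1 mean per group over all 18 libraries. Calls took a Benjamini-Hochberg adjusted p under 0.05 over all rows. Log2 changes are unshrunk coefficients, and 95% intervals use the quasi-likelihood dispersion. The fit and its intervals were tested on simulated data. DESeq2 1.42.0 and voom in limma 3.58.1 were alternatives, as were scaling, filter, libraries fitted, leave-one-out fits and the interval level.

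Members and gene lists were chosen with earlier results of these data known, and RefSeq symbols and products set the families. Named genes are RTL1 to RTL3, the Dicers, calls, the 5 next rows by p, reference genes and, per list, up to 3 members of at least 1 CPM with the narrowest interval and up to 3 with the largest change. Genes outside that rule (tissue markers, and AT1G67626 and AT4G21870 among the intervals beyond 2-fold) were named after their values were seen.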

Additional observations from a re-analysis of the deposited data

Results flagged for a closer look

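The effect of the construct differed between the wild-type and the dcl234 background for 2 of 21343 rows (0.00937%) by the interaction term of the edgeR fit. The non-coding RNA AT1G67105 was at 3.03, 6.43 and 3.7 CPM in 35S-RTL2 and 0.962, 1.13 and 1.08 CPM in Col-0, with no overlap, a log2 change of 2.06 (adjusted p = 0.897). In dcl234 its change was -2.69 (adjusted p = 0.0626), so that the difference, dcl234 minus wild type, was -4.76 (SE 0.66; adjusted p = 0.0282). Neither change passed the test by itself in edgeR.

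The row that joins HDA2, MIR860 and FC1 was at 106, 111 and 98.1 CPM in 35S-RTL2 and 94.6, 106 and 102 CPM in Col-0, with overlapping groups and a log2 difference of 0.06. In dcl234 it fell by 1.16 on the log2 scale with the construct (adjusted p = 0.000534). The difference between backgrounds was -1.22 (SE 0.16; adjusted p = 0.0282). Which of the 3 genes carries it cannot be read from a joined row.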

How the results depend on the processing

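RTL2 and QQS were called in every fit run. The number of calls was 2 in all of them except 3 without a filter on low counts and 3 without Col-0 replicate 2, where AT5G35935 joined (adjusted p = 0.0423 and 0.00614), and 7 with DESeq2 (4 higher, 3 lower), where AT5G35935, OFP12, AT4G04223, AT1G67105 and PAP26 joined; the cause was not tested. As each library was left out, the log2 change ran from 7.49 to 7.62 for RTL2 and from -2.88 to -2.67 for QQS, and rows bounded within 2-fold numbered 16378 to 17049. They numbered 17381 with RLE scaling, 17452 of 26848 without a filter, 17829 of 19894 with the 6 libraries fitted alone, 17041 with the number in the table names as a term, 17469 by voom and 15986 with a 99% interval. Among list members, 335 to 354 rows were bounded as each library was left out and 329 with a 99% interval, in place of 358. In the lists, 892 of the recomputed counts of bounded rows stayed within 1.5 times the reported one and 4 did not, and these were mitochondrial transcripts (2 with the 6 libraries alone), cysteine-rich receptor-like kinases (9 without 35S-RTL2 replicate 3 and 9 with a 99% interval) and small nucleolar RNAs (17 with a 99% interval).

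The titles number replicates in each group that has them. For same-numbered libraries, the correlations of their deviations from the group means were 0.278, 0.0494 and 0.220. Differently numbered pairs ran from -0.308 to 0.0783, so 0.278 and 0.220 lay above all of these and 0.0494 did not. Whether libraries of the same number were handled together was not tested. A fit with the replicate number as a block left out the library of dcl234 with truncated DCL1, whose title has no number. Of the 20858 rows it tested, 2 were called and 17533 (84.1%) were bounded within 2-fold. An unadjusted p under 0.05 in edgeR was found in 1329 rows, against 956 of 21343 in the main fit. In the lists 361 rows were bounded. The dcl234 comparison gave 13 calls and the difference between backgrounds 3. The log2 change was 7.57 for RTL2 and -2.79 for QQS.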
